A study of Mus musculus with 55 samples.

Results

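The comparison was between susceptible (SUS) and unstressed control mice raised in an enriched environment (EE), in RNA-seq of the ventral dentate gyrus. The members were chosen by their labels for housing and outcome, which gave 18 mice, 9 EE SUS and 9 EE control, out of 54 in the series. The 18 mice gave 19 libraries, because EE control mouse 9 had 2 sequencing runs, which were added together. All were C57/BL6J male mice placed in their housing at weaning age and kept there for 8 weeks. EE SUS mice then went through 10 days of chronic social defeat stress (CSDS) and were called SUS from a low social interaction ratio, whereas EE control mice were not defeated. Tissue was taken at postnatal day 90 and the RNA of each mouse was kept separate. EE resilient (RES) mice, which were defeated but kept social interaction (9 mice), and the SUS and control mice raised in standard housing (SH, 10 mice each) served for comparison, and SH RES mice (7) entered the fit. Controls and defeated mice differ in everything the defeat protocol brings, including physical contact with an aggressor, so the effect of defeat and the state of being SUS cannot be told apart from this comparison alone.

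The ventral dentate gyrus is a part of the hippocampus tied to anxiety-like behavior and stress responses, and granule neurons are its main cell type. In the CSDS model a mouse is exposed each day to a larger aggressor, and mice that afterwards avoid a social target are termed SUS. An enriched environment offers toys, shelters or company and is known to change hippocampal neurogenesis and stress responses. The labelled tissue was checked against 12 marker genes of mature granule cells. Every one of the 12 was detected, with a mean level of 6.26 to 6.83 log2 CPM (read counts scaled to a common library size) in EE SUS mice and 5.97 to 7.04 in EE control mice. Prox1, the transcription factor that sets granule cell identity, lay between 116 and 157 CPM in EE SUS mice and between 79.6 and 210 CPM in EE control mice.

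Depth was similar in both groups. Counts on genes ran from 18065586 to 23801480 in EE SUS mice and from 18733020 to 45872357 in EE control mice, the highest being the mouse with 2 runs. The share of reads on genes was 47.5 to 52.0% in EE SUS libraries and 45.8 to 51.1% in EE control libraries. Levels are CPM after TMM scaling, and differences are log2 fold changes from edgeR, with the standard error (SE) and a Benjamini-Hochberg adjusted p over all genes tested. DEGs are genes that met the criterion used in the study, a limma-voom unadjusted p below 0.05 with a fold change above 1.3. Each sample is 1 mouse, but the labels do not give litters or cages, so p-values measure the spread between these mice. Genes of the choroid plexus, the tissue of the ventricles, overlapped between the groups (mean log2 CPM from -0.50 to 3.79 in EE SUS and from -0.40 to 3.22 in EE control mice). Of the 10 genes tested 0 were DEGs, which for a short list lies near the 1.94% of all genes. The highest values came from EE SUS mouse 3 and EE control mouse 9. Without EE SUS mouse 3 the median log2 fold change of this list was -0.83 instead of 0.28, and 1 of the 10 genes was a lower DEG.

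Few genes separated SUS from control mice raised in EE. Leaving aside the genes the study names, most DEGs belonged to none of the hand-made gene lists (215 of 243 higher and 110 of 112 lower DEGs). Most of the 18283 genes tested also lie outside these lists, so nothing is read from those counts. Hemoglobin and other red cell genes, genes that mark the thalamus, and MHC class II genes were among the higher DEGs, and Cort and Gal among the lower. None passed correction across the genome: 0 of 18283 genes (0%) had an adjusted p below 0.05 by edgeR, and 0 did by limma-voom or DESeq2. The smallest adjusted p was 0.123 by edgeR, 0.261 by limma-voom and 0.0609 by DESeq2. At an unadjusted p below 0.05, edgeR gave 1444 genes (7.9% of those tested), limma-voom 1348 and DESeq2 1408. By the DEG criterion 355 genes (1.94%) were called, of which 243 (1.33%) were higher and 112 (0.613%) lower in EE SUS mice. Protein-coding genes made up 198 of the 243 higher DEGs and 42 of the 112 lower DEGs. The lower side held many weakly annotated loci, 18 of them transcripts annotated as still to be verified (TEC) and 13 processed pseudogenes.

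**Figure D1:**
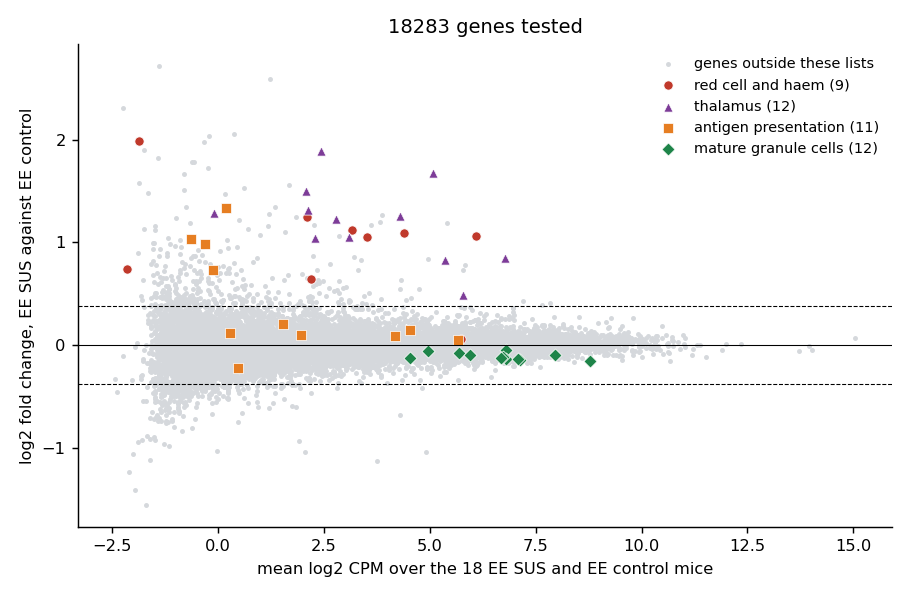
Log2 fold change of EE SUS against EE control mice (vertical axis) against the mean log2 CPM over the 18 mice (horizontal axis), with 1 point per gene tested. Dashed lines mark a fold change of 1.3 in either direction. Red cell (circles) and thalamus (triangles) genes lie above 0, with 12 of 12 thalamus genes above the upper line, while all 12 mature granule cell genes (diamonds) lie just below 0.

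Genes of red blood cells formed the first group. Alas2 encodes the erythroid form of the first enzyme of heme synthesis, Hba-a1 and Hba-a2 encode alpha globin, and Hbb-bs and Hbb-bt encode adult beta globin. Slc4a1 encodes the band 3 anion exchanger of the red cell membrane. Erythroid genes are commonly driven by GATA1 and KLF1, which bind GATA and CACCC motifs. The 250 bases upstream of the RefSeq start site are printed for 4 of these genes because all were higher in EE SUS mice (GRCm38.p6, in the direction of the gene). They lie at chr7:103827929-103828178 (minus strand) for Hbb-bs, chr7:103813924-103814173 (minus) for Hbb-bt, chr11:32283422-32283671 (plus) for Hba-a1 and chrX:150547167-150547416 (plus) for Alas2. Capitals mark the GATA letters, which are AGATAA or else TGATAA, the letters CACCC and the letters TATAAA, each read on both strands. All marked letters of Alas2 stand on the minus strand, and its CACCC copies follow each other directly.
Hbb-bs: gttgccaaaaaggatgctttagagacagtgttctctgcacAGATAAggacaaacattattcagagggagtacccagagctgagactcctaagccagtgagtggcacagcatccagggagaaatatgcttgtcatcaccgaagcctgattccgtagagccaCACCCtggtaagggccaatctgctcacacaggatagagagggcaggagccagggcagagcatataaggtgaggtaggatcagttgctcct
Hbb-bt: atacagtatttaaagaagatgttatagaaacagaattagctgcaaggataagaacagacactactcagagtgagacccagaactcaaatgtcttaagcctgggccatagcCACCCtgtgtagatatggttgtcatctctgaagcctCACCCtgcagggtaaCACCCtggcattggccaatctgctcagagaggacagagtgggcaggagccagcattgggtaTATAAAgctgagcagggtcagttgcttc
Hba-a1: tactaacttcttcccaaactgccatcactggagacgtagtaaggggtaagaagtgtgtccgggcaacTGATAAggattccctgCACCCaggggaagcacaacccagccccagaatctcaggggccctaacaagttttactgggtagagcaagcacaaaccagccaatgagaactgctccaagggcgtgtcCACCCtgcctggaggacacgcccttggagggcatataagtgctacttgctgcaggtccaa
Alas2: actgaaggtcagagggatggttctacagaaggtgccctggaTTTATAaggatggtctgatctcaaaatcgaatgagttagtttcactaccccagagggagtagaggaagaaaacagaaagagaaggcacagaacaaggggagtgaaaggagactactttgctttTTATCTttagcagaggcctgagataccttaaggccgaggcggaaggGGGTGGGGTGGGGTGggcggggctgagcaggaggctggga
Of the 9 tested genes in the list, 7 had a promoter in the RefSeq table. A GATA motif was found in 4 of these (Alas2, Hbb-bs, Hba-a1 and Hba-a2), against 16.6% of 32851 mouse promoter windows of the same length. CACCC was found in 5 of the 7 and in 52% of all windows, and TATAAA in 2 of the 7 and in 12.4%. The windows of Hba-a1 and Hba-a2 are nearly the same sequence and are not independent. A match shows only that the letters occur in the window, on either strand and at any distance from the start. Other forms of these motifs were not searched, so a window without a match can still hold one.

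In the list of red cell and heme genes, 7 of 9 tested genes were higher by the DEG criterion (1.33% of all genes were) and 0 lower. The 7 include both alpha and both beta globin genes, which are near copies and not independent. All 9 log2 fold changes were above 0, with a median of 1.06, against -0.01 over all genes tested. Alas2 ran from 2.3 to 16.6 CPM in EE SUS mice with a median of 6.51, and from 2.13 to 3.71 CPM in EE control mice with a median of 2.89. Of the 9 EE SUS mice 7 lay above every control mouse, while EE SUS mouse 7 was near the bottom of the control range. Its fold change of 2.37 (log2 1.24, SE 0.27) had an edgeR adjusted p of 0.123. Hbb-bs ran from 32.1 to 252 CPM with a median of 107 in EE SUS mice, and from 35.3 to 66.4 CPM with a median of 48.2 in EE control mice. Again 7 SUS mice were above all controls and mouse 7 was below all of them (fold change 2.09, log2 1.06, SE 0.25, edgeR adjusted p 0.126). The highest value of each globin gene and of Alas2 came from EE SUS mouse 3.

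The other globin genes had the same highest and lowest EE SUS mouse. Hba-a1 had a median of 34.3 CPM (9.75 to 89.5) in EE SUS and 16.9 CPM (12.1 to 20.7) in EE control mice. Hba-a2 had 16.9 CPM (4.51 to 45.5) and 8.44 CPM (5.91 to 10.7), and Hbb-bt 13.3 CPM (3.67 to 36.7) and 6.84 CPM (4.14 to 8.87). For Hba-a1 5 SUS mice were above all controls, for Hba-a2 8 and for Hbb-bt 7, and mouse 7 was below all controls for each. Their log2 fold changes were 1.09, 1.05 and 1.12, with edgeR adjusted p of 0.175, 0.171 and 0.172. Both alpha globin genes are near copies of each other, as are both beta globin genes, so they are not independent genes. Reads that map to several places were not counted on any gene, so the levels of near copies can be too low. Tent5c, a noncanonical poly(A) polymerase known from plasma cells and maturing red cells, ran from 3.61 to 10.5 CPM in EE SUS and from 3.09 to 4.82 CPM in EE control mice, with overlap (log2 0.65, SE 0.18). Slc4a1 stood at the edge of detection, with medians of 0.188 and 0.0965 CPM. Whether more red cells or more RNA per cell were present cannot be told apart in bulk tissue, and the contribution of blood left in the tissue was not tested.

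Red cell genes were also higher in SUS mice raised in SH and in EE RES mice. In SH, 170 genes (0.93%) were DEGs between SUS and control mice, 116 (0.634%) higher and 54 (0.295%) lower, and 8 of the 9 red cell genes were among the higher. By edgeR 6 genes (0.0328%) passed an adjusted p of 0.05 in SH, with 508 (2.78%) at an unadjusted p below 0.05. Alas2, Hba-a1 and Hba-a2 had an adjusted p of 0.00647 there, and Hbb-bs and Hbb-bt one of 0.000899. In EE RES mice, which share their controls with EE SUS mice, 7 of 9 genes were higher (90 of all genes were, 0.492%). Hbb-bs ran from 50.4 to 132 CPM in EE RES mice with a median of 84.7, and from 42.7 to 244 CPM in SH SUS mice with a median of 129. SH control mice had a median of 49.4 CPM and SH RES mice one of 101 CPM, so the medians of all 4 defeated groups were above those of both control groups. Subtracting the SH effect from the EE effect gave -0.41 (SE 0.34) for Hbb-bs and -0.08 (SE 0.37) for Alas2 on the log2 scale, with edgeR adjusted p of 1 for both. EE SUS minus EE RES was 0.33 (SE 0.24) for Hbb-bs, with an edgeR adjusted p of 1. Without EE SUS mouse 3, the log2 fold change of Hbb-bs was 0.80 and that of Alas2 0.97, and 6 of the genes were called.

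**Figure D2:**
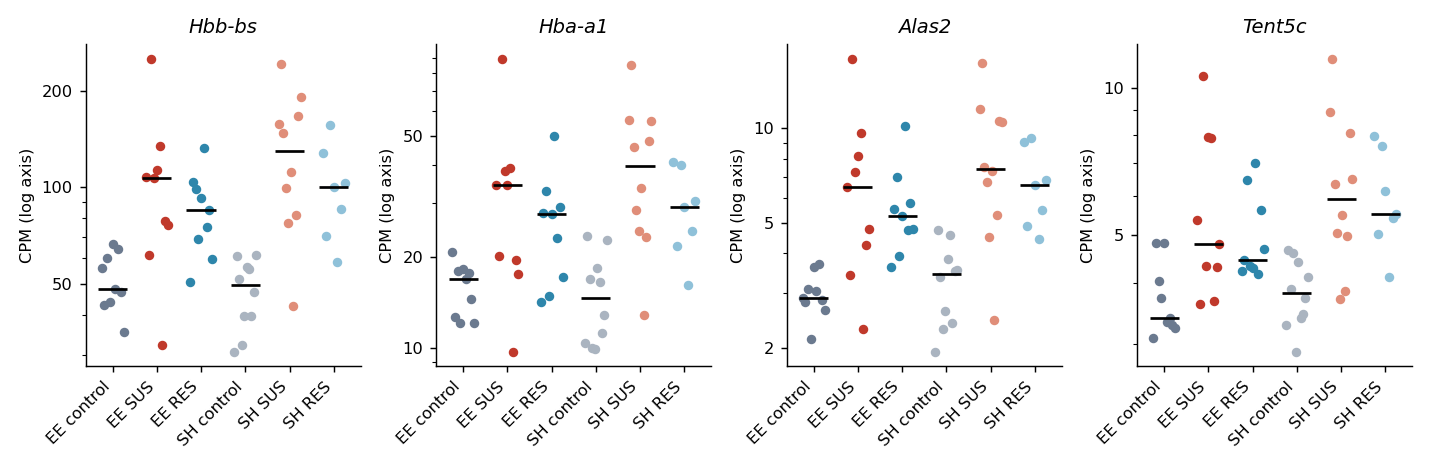
CPM on a log axis of 4 red cell genes in each mouse of the 6 groups (1 point per mouse, black line at the median). The EE SUS points of Hbb-bs spread from 32.1 to 252 CPM, while the EE control points stay between 35.3 and 66.4 CPM.

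Genes that mark the thalamus formed the second group. The thalamus is a relay of sensory signals to the cortex and lies next to the hippocampus. All 12 listed thalamic markers were higher by the DEG criterion (1.33% of all genes were), with a median log2 fold change of 1.24. The list was chosen with earlier results of these data known, so the count of 12 is not independent evidence. Prkcd encodes protein kinase C delta, which is abundant in thalamic relay neurons. It ran from 23.5 to 144 CPM in EE SUS mice with a median of 65, and from 12.2 to 42.2 CPM in EE control mice with a median of 17.1. A total of 6 SUS mice lay above every control mouse (fold change 3.19, log2 1.67, SE 0.41, edgeR adjusted p 0.145). Tnnt1, a slow-type troponin T also transcribed in thalamic neurons, had medians of 13.1 and 2.22 CPM (ranges 2.79 to 24 and 1.47 to 8.85, log2 1.89, SE 0.48, edgeR adjusted p 0.163). Ramp3, a partner of calcitonin-family receptors, had medians of 7.53 and 2.56 CPM (log2 1.31).

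The other thalamic markers were Plcb4 (phospholipase C beta 4, log2 0.82), the nuclear receptor Rora (0.85), the Wnt pathway factors Lef1 (1.04) and Tcf7l2 (1.22), the vesicular glutamate transporter Slc17a6 (1.25), the homeobox genes Gbx2 (1.28) and Zfhx3 (1.05), the netrin-related Ntng1 (0.48) and the VIP receptor Vipr2 (1.5). Their edgeR adjusted p lay between 0.202 for Lef1 and 0.504 for Gbx2. Plcb4 ran from 31.3 to 92.7 CPM with a median of 52.1 in EE SUS mice and from 24.4 to 44.6 CPM with a median of 28.6 in EE control mice, so 5 SUS mice were above all controls. Rora, with medians of 145 and 76.7 CPM, gave the same count of 5. Among EE SUS mice, mouse 7 was lowest for each listed gene except Lef1, for which mouse 3 was.

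Several genes outside the list ranked high among all genes. Shox2, a homeobox factor of thalamic and other neurons, had the largest fold among the 12 genes with the smallest p on the higher side. Shox2 values ran from 0.784 to 13.4 CPM with a median of 7.53 in EE SUS mice and from 0.322 to 2.95 CPM with a median of 0.965 in EE control mice (fold change 6.02, log2 2.59, SE 0.56, edgeR adjusted p 0.123). Fam19a4, which encodes a small secreted chemokine-like protein, had medians of 2.52 and 0.624 CPM (log2 2.06, SE 0.48, edgeR adjusted p 0.126). Prkch, which encodes protein kinase C eta, had medians of 5.18 and 3.63 CPM (log2 0.87, SE 0.20, edgeR adjusted p 0.126), and 7 SUS mice were above all controls. Zic1 (a zinc finger factor) and Rgs16 (a regulator of G protein signaling), named after their values were seen, had log2 fold changes of 1.26 and 1.17, and Adra1b (the alpha-1B adrenergic receptor) 1.28. Without the 5 SUS mice named below, the log2 fold changes were 1.16 for Shox2, 0.37 for Fam19a4, 0.31 for Prkch, 0.29 for Zic1, 0.27 for Rgs16 and 0.08 for Adra1b.

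The mean log2 CPM of the 12 thalamic genes ran from 2.80 to 5.13 in EE SUS mice (median 4.12) and from 2.21 to 3.88 in EE control mice (median 2.83). In the EE SUS group 5 mice (1, 2, 5, 6 and 8) lay above every EE control mouse, and the other 4 lay inside the control range. The EE control median was the lowest of the 6 groups. EE RES mice ran from 1.82 to 5.03 with a median of 3.33, and the SH groups had medians of 3.46 in control, 3.30 in SUS and 3.26 in RES mice. In SH, 0 of the 12 genes were called between SUS and control mice, with a median log2 fold change of 0.10. Subtracting the SH effect from the EE effect gave 1.39 (SE 0.55) for Prkcd and 0.76 (SE 0.31) for Plcb4, each with an edgeR adjusted p of 1. EE RES mice, set against the same EE controls, had 2 of the 12 genes higher by the criterion (0.492% of all genes were). On the log2 scale the median of the list was 0.48 in that comparison, with Prkcd at 1.18 and Plcb4 at 0.38. Part of the rise over these controls was therefore also seen in EE RES mice. Between EE SUS and EE RES mice 5 of the 12 were higher in SUS (100 of all genes were, 0.547%), with a median log2 difference of 0.60.

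DEGs were also counted without these 5 EE SUS mice, which were left out after their values were seen. With the 4 SUS mice left, 127 genes were higher and 202 lower, and 0 of the 12 thalamic genes were called, which the choice of mice favors. With the mean levels of the choroid plexus and thalamus lists as covariates, 93 genes were higher and 156 lower, and by construction 0 of the thalamic genes were called. In both, more DEGs were lower than higher. Red cell genes were called in 6 of 9 cases under either alternative, with median log2 fold changes of 1.22 and 0.87. Cd74 was at 1.48 and 1.22, Ppp2r1b at -0.21 in both, and Prkcd at 0.46 and 0.26 on the log2 scale. The part that thalamic tissue in the dissected samples has in these results was not tested.

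**Figure D3:**
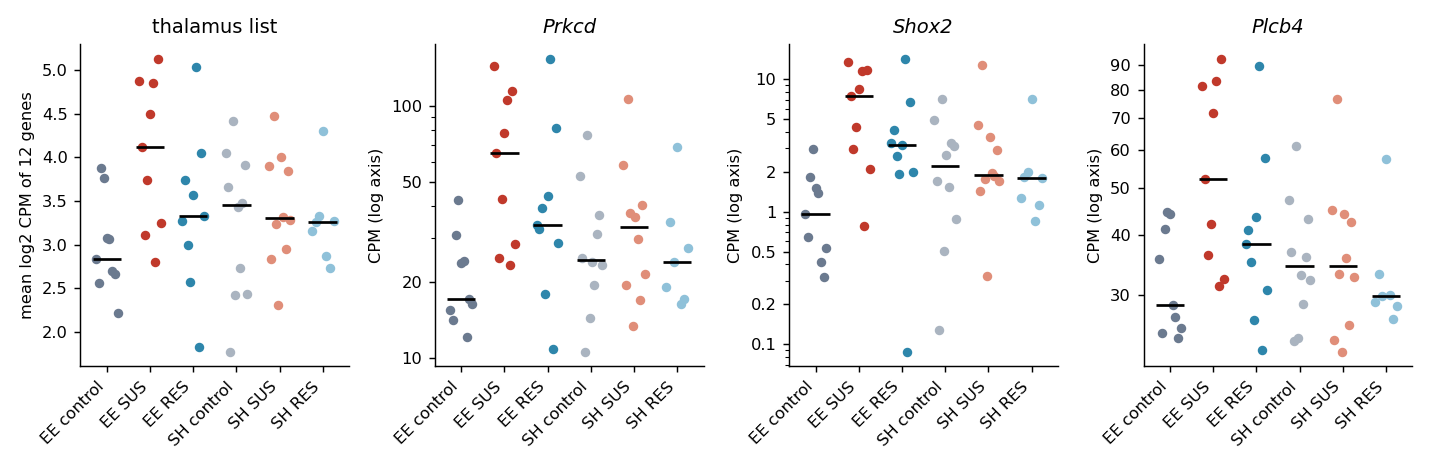
Mean log2 CPM of the 12 thalamus genes (left) and CPM on a log axis of Prkcd, Shox2 and Plcb4 in each mouse of the 6 groups (1 point per mouse, black line at the median). The EE SUS median of the list is 4.12 and the EE control median 2.83, and single mice of the other groups reach the EE SUS range.

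The cyan and yellow co-expression modules were built and chosen by the study on samples that may include these mice, so their direction here is not independent evidence. In the yellow module 49 of 449 tested genes were higher (10.9%, against 1.33% of all genes) and 1 lower, with a median log2 fold change of 0.08. Of the 12 thalamic markers 6 belong to this module. Without the 5 EE SUS mice highest in thalamic genes, 7 yellow genes were higher, and with the choroid plexus and thalamus covariates together 2 were. These mice were picked by the thalamic list and the thalamus covariate was built from it, so both settings favor fewer yellow calls. Nothing is read from the fall. The cyan module had 6 of 297 genes higher (2.02%, near the 1.33% of all genes) and 2 lower. Its folds were small but mostly upward: 224 of 297 log2 fold changes were above 0 (8686 of all 18283 were), with a median of 0.05. At an unadjusted edgeR p below 0.05, 41 cyan genes were higher and 2 lower, against 828 and 616 of all genes. Genes of a co-expression module are not independent.

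Of 14 genes named in the study, as network hubs or DEGs, 5 were higher in EE SUS mice (1.33% of all genes were) and 0 lower. Besides Plcb4 and Tnnt1 these were Cpne9 (a calcium-dependent membrane-binding copine), Vwc2 (a secreted BMP modulator) and Usp43 (a ubiquitin-specific protease). Plcb4 and Tnnt1 are also in the thalamus list. The study reports Plcb4 and Usp43 as differentially expressed in SUS mice raised in EE, in a comparison with RES mice and not with unstressed controls. That result may rest on these same mice, so the direction of Plcb4 and Usp43 here is not independent evidence. Between EE SUS and EE RES mice, 1 of the 14 genes was higher by the criterion (0.547% of all genes were) and 0 lower. Cpne9 had medians of 22.7 and 18.5 CPM (log2 0.37, SE 0.12, edgeR adjusted p 0.337) and Vwc2 of 8.42 and 6.49 CPM (log2 0.40, SE 0.13, edgeR adjusted p 0.348). Usp43 had medians of 0.71 and 0.499 CPM, and its log2 fold change of 0.73 was 0.37 without EE SUS mouse 8, which had the highest value. With both tissue covariates the log2 fold changes were 0.12 for Cpne9, 0.05 for Vwc2 and 0.0048 for Usp43.

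MHC class II genes formed the next group. These genes are expressed by antigen-presenting cells such as dendritic cells, macrophages and activated microglia. In the list of antigen presentation genes 3 of 11 were higher (1.33% of all genes were, and 2 to 4 of the 11 when each mouse was left out) and 0 lower, and all 3 belonged to class II: Cd74 (the invariant chain), H2-Ab1 and H2-Eb1. Cd74 ran from 0.446 to 3.59 CPM with a median of 2.08 in EE SUS mice and from 0.215 to 1.49 CPM with a median of 0.681 in EE control mice. A total of 6 SUS mice were above all controls (fold change 2.52, log2 1.33, SE 0.35, edgeR adjusted p 0.175). H2-Ab1 had medians of 0.849 and 0.398 CPM with clear overlap, since 4 SUS mice were above and 2 below all controls (log2 1.03, SE 0.35, edgeR adjusted p 0.404). H2-Eb1 had medians of 1.13 and 0.649 CPM (log2 0.73, SE 0.27), and H2-Aa, which was not called, 1.15 and 0.551 CPM (log2 0.99, SE 0.36). The class I genes of the list had log2 fold changes between 0.05 for B2m and 0.15 for H2-D1 and none was called.

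The genes of this paragraph were named because they were higher, after their values were seen, and form no list. In the lists nearest to them, 0 of 2 tested neutrophil genes, 0 of 4 cytokine and acute phase genes and 0 of 14 microglial genes were called (1.94% of all genes were). Ccr2, the chemokine receptor of inflammatory monocytes, had medians of 0.644 and 0.31 CPM (log2 1.67, SE 0.43, edgeR adjusted p 0.171). Lyz2, a lysozyme of macrophages and neutrophils, ran from 6.3 to 38.1 CPM in EE SUS mice and from 6.03 to 10.8 CPM in EE control mice (medians 11.2 and 8.5, log2 0.73, SE 0.20, edgeR adjusted p 0.216). Ackr1, a chemokine-binding receptor of venules and red cells, ran from 4.38 to 16.3 CPM and from 3.18 to 6.24 CPM (medians 5.49 and 4.36, log2 0.63, SE 0.18). Complement C3 had medians of 0.886 and 0.338 CPM (log2 1.19, SE 0.39). Ier3, an immediate early gene that limits apoptosis, had medians of 4.04 and 2.58 CPM (log2 0.68, SE 0.18, edgeR adjusted p 0.171).

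A single mouse carried part of these values. EE SUS mouse 7 had the highest value of Ccr2, Lyz2, Ackr1, C3, Ier3, H2-Ab1 and S100a9, a calcium-binding protein of neutrophils. S100a9 was at 13.3 CPM in that mouse, while the EE SUS median was 0.197 CPM and the EE control median 0.248 CPM. Without mouse 7 the log2 fold change of S100a9 was 0.12 instead of 2.72, that of C3 0.60, that of Lyz2 0.38 and that of Ackr1 0.36. Ccr2 had 1.16 without this mouse. The highest Cd74 came from EE SUS mouse 6. The same mouse 7 had the lowest red cell and thalamic levels among EE SUS mice, and without it edgeR gave 4 genes with an adjusted p below 0.05: Alas2 (0.0401), Hbb-bs, Shox2 and the G protein regulator Rgs8 (each 0.0423). Leaving out the mouse lowest for red cell and thalamic genes favors such genes, and limma-voom gave 0 genes without it. The median log2 fold change of the microglial list was 0.05.

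Cd74 was set beside the other comparisons. Cd74 was 0.89 (SE 0.34) higher in SUS than control mice in SH on the log2 scale. In EE RES mice, which share the controls, the log2 fold change was 0.69 (SE 0.36). The EE effect exceeded the SH effect by 0.44 (SE 0.50), with an edgeR adjusted p of 1.

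**Figure D4:**
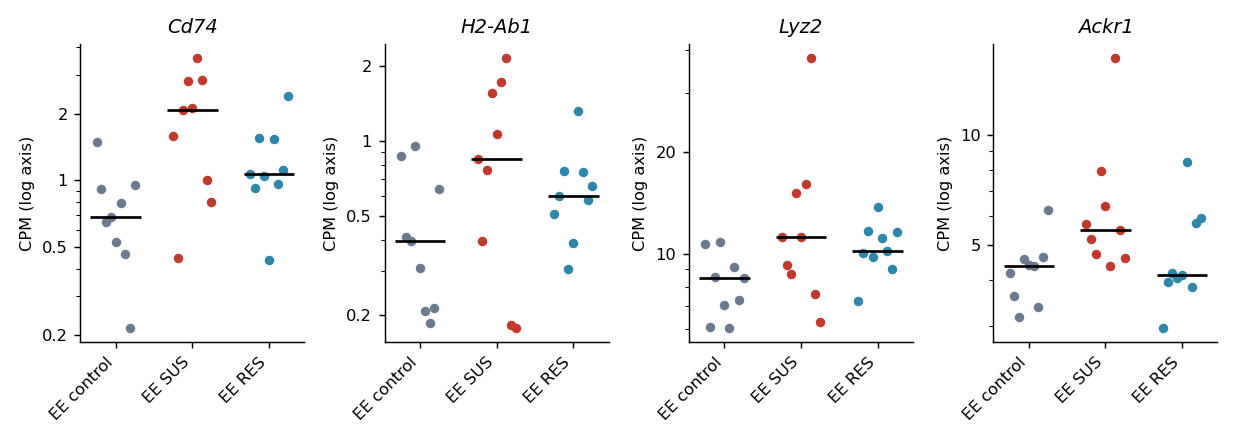
CPM on a log axis of Cd74, H2-Ab1, Lyz2 and Ackr1 in each EE mouse (1 point per mouse, black line at the median). Cd74 medians are 0.681 in EE control, 2.08 in EE SUS and 1.07 in EE RES mice, and the single high Lyz2 and Ackr1 points of 38.1 and 16.3 CPM are EE SUS mouse 7.

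In only 3 of 18283 genes did the 9 EE SUS mice not overlap with the 9 EE control mice, 2 of them lower (0.0109%) and 1 higher (0.00547%). Ppp2r1b encodes the beta isoform of the scaffold subunit of protein phosphatase 2A. It ran from 11.9 to 13.6 CPM in EE SUS mice (median 12.5) and from 13.7 to 16.3 CPM in EE control mice (median 14.4). Its fold change was small (0.86, log2 -0.22, SE 0.05, edgeR adjusted p 0.123) and below that of a DEG. Kctd14, which encodes a BTB domain protein, ran from 2.13 to 2.59 CPM and from 2.63 to 3.94 CPM (medians 2.4 and 3.04, log2 -0.42, SE 0.10, edgeR adjusted p 0.145). Rcan1, an inhibitor of the phosphatase calcineurin, was named after its values were seen. Rcan1 ran from 32 to 36.2 CPM in EE SUS mice and from 29.1 to 31.7 CPM in EE control mice (medians 33.9 and 31.5, log2 0.14, SE 0.05, edgeR adjusted p 0.481).

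The values of these genes in the other defeated groups were as follows. Ppp2r1b had a median of 14.1 CPM in EE RES mice, inside the control range, and the log2 difference of EE SUS minus EE RES was -0.15 (SE 0.05, edgeR adjusted p 1). Kctd14 had a median of 2.55 CPM in EE RES mice (1.83 to 2.97) and a log2 fold change of -0.35 (SE 0.10) against the shared controls. Rcan1 had a median of 33.4 CPM in EE RES mice. In SH the SUS to control log2 fold changes were -0.05 (SE 0.04) for Ppp2r1b and -0.06 (SE 0.10) for Kctd14. The log2 fold change of Ppp2r1b stayed between -0.23 and -0.20 when each mouse was left out.

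**Figure D5:**
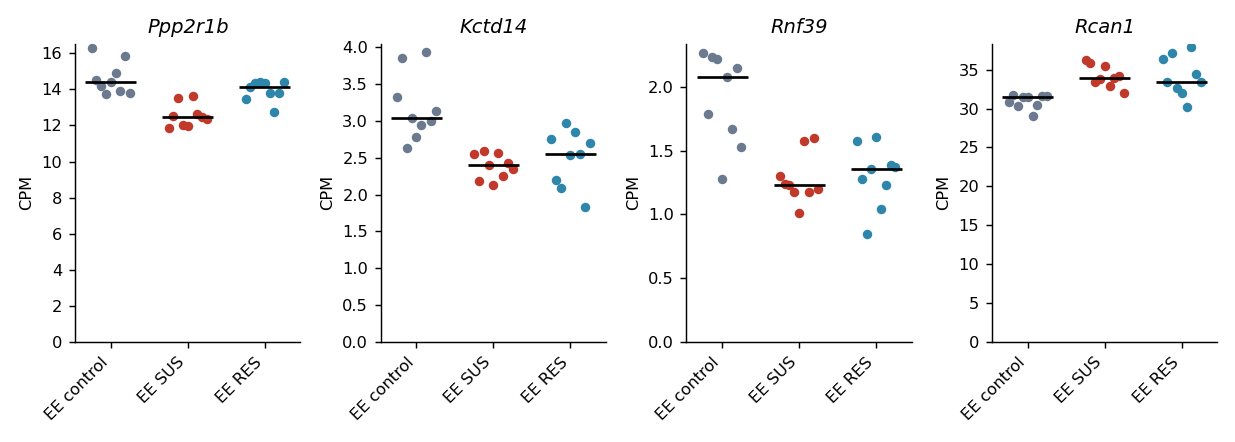
CPM of Ppp2r1b, Kctd14, Rnf39 and Rcan1 in each EE mouse (linear axis from 0, 1 point per mouse, black line at the median). EE SUS and EE control points do not overlap for Ppp2r1b, Kctd14 and Rcan1, and the EE RES medians are 14.1, 2.55, 1.35 and 33.4 CPM in that order of genes.

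Other genes of the lower side had small folds or low levels. Rnf39, a RING finger gene of the MHC region, ran from 1.01 to 1.6 CPM in EE SUS mice (median 1.23) and from 1.28 to 2.27 CPM in EE control mice (median 2.08). Of the 9 SUS mice 6 were below every control (log2 -0.57, SE 0.13, edgeR adjusted p 0.126), and EE RES mice had a median of 1.35 CPM. The long noncoding RNA Gm26710 had medians of 0.248 and 0.51 CPM (log2 -0.98, SE 0.21, edgeR adjusted p 0.123). Slc24a4, a sodium, calcium and potassium exchanger, had medians of 18.7 and 23.5 CPM (log2 -0.29, SE 0.08, edgeR adjusted p 0.249). Colgalt2, a collagen galactosyltransferase, had medians of 7.3 and 8.54 CPM (log2 -0.23, SE 0.06), and Ltbp1, which holds latent TGF-beta in the matrix, 11.6 and 13.2 CPM (log2 -0.21, SE 0.06). The last 3 did not reach a fold of 1.3. The rest of the 12 genes with the smallest p on this side were noncoding or pseudogenes: Gm42722 (-0.84), Rpl31-ps16 (-0.80), Gm38377 (-0.57), Gm15549 (-0.52) and Gm37488 (-0.38). Gm42722 is annotated as antisense, and Rpl31-ps16 and Gm15549 are processed pseudogenes whose reads may come from their parent genes.

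On the higher side, genes outside the groups above had moderate folds, and those of Rgs8 and Relt were below 1.3. Rgs8 had medians of 129 and 109 CPM (log2 0.25, SE 0.06, edgeR adjusted p 0.126) and Adgrf4, an adhesion G protein-coupled receptor, 5.74 and 3.93 CPM (log2 0.47, SE 0.11, edgeR adjusted p 0.126). Lingo4, a leucine-rich repeat membrane protein, had medians of 1.48 and 0.883 CPM (log2 0.70, SE 0.16, edgeR adjusted p 0.126). The TNF receptor family member Relt was above all controls in 8 SUS mice (medians 11.1 and 8.68 CPM, log2 0.36, SE 0.09), and the aldehyde oxidase Aox4 in 7 (medians 1.73 and 1.27 CPM, log2 0.54, SE 0.13). Kcnc2, the Kv3.2 potassium channel of fast-spiking neurons, had medians of 182 and 124 CPM (log2 0.42, SE 0.11, edgeR adjusted p 0.195). Without the 5 SUS mice high in thalamic genes, the log2 fold changes were 0.09 for Rgs8, 0.14 for Relt and 0.16 for Kcnc2, but 0.47 for Aox4.

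Of 12 neuropeptide genes tested, 2 were lower (0.613% of all genes were) and 0 higher by the DEG criterion, and 11 of 12 had a log2 fold change below 0, with a median of -0.26. Cort encodes cortistatin, a peptide of GABA interneurons related to somatostatin. Cort values ran from 1.32 to 2.92 CPM in EE SUS mice (median 2.04) and from 1.93 to 4.49 CPM in EE control mice (median 2.82), with 3 SUS mice below all controls (log2 -0.47, SE 0.14, edgeR adjusted p 0.305). Gal, which encodes galanin, had medians of 1.06 and 1.45 CPM (log2 -0.45, SE 0.20, edgeR adjusted p 0.567). Vip, the vasoactive intestinal peptide of interneurons, had medians of 9.94 and 11.5 CPM and was not called (log2 -0.31, SE 0.10, edgeR adjusted p 0.402). Without EE SUS mouse 7, and also without the 5 SUS mice high in thalamic genes, 1 of the 12 was called. The CA1 pyramidal cell markers, of a neighboring hippocampal field, had 0 of 6 called. Their log2 fold changes had a median of -0.33, and of -0.46 for EE SUS minus EE RES mice, and their part in the neuropeptide values was not tested. Interneuron markers as a list had 0 of 14 genes called and a median log2 fold change of -0.06.

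Granule cell genes showed no call, which for short lists lies near the 1.94% of all genes that were DEGs. All 12 mature granule cell markers had a log2 fold change below 0, between -0.16 and -0.05, with 0 called and a median of -0.12. Prox1 was at -0.15 (SE 0.12). Among immature neuron markers 0 of 12 were called (median -0.10), with Dcx, the microtubule protein of migrating young neurons, at -0.18 (medians 14.8 and 16.4 CPM, SE 0.07, edgeR adjusted p 0.534). Proliferation markers had 0 of 11 called, with Mki67, a marker of dividing cells, at -0.24 (SE 0.14). Without the 5 SUS mice high in thalamic genes, the median of the mature granule cell list was -0.01.

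Gene lists tied to stress signaling and neuronal activity had few calls, and 1.94% of all genes were DEGs. For lists of this size 0 calls lies near that share, so nothing is read from the lack of calls. Of 51 gene lists, with the genes the study names as 1 of them, 40 had no DEG in either direction. Among glucocorticoid receptor targets 0 of 20 were called (median -0.03), and a leading member was Zbtb16, a glucocorticoid-induced transcription factor (medians 41.1 and 46.9 CPM, log2 -0.23, SE 0.07, edgeR adjusted p 0.337). Among immediate early genes 0 of 17 were called (median -0.05), including the activity-induced factors Nr4a2 (-0.23, SE 0.12) and Egr4 (-0.22, SE 0.15). Opioid (0 of 11), serotonin receptor (0 of 11), heat shock (0 of 15), circadian clock (0 of 17) and GABA-A receptor (0 of 12) lists had none, with medians between -0.05 and 0.06. Htr1a, the serotonin 1A receptor, had a log2 fold change of -0.22 (SE 0.08, edgeR adjusted p 0.451).

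A single higher DEG was found in 6 lists of 7 to 18 genes, where 1.33% of all genes were higher, so nothing is read from these lists. Besides Adra1b among 10 dopamine and adrenergic receptors and Kcnc2 among 18 potassium channels, these were Gjb1 (connexin 32 of oligodendrocytes, log2 0.36, SE 0.18) among 15 myelin genes, Ifitm3 (an interferon-induced antiviral protein, log2 0.50, SE 0.15) among 14 interferon genes, Grm4 (metabotropic glutamate receptor 4, log2 0.79, SE 0.27) among 7 receptors of its family, and Tgfb1 (log2 0.43, SE 0.22) among 15 genes of TGF-beta signaling. All 15 myelin genes had a log2 fold change above 0, with a median of 0.18, and the median without the 5 SUS mice high in thalamic genes was 0.02. Grm4 was at -0.13 with both tissue covariates.

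The housing difference asked whether the SUS to control effect in EE differed from that in SH. By edgeR 0 of 18283 genes had an adjusted p below 0.05, and limma-voom and DESeq2 also gave 0. At an unadjusted p below 0.05 edgeR gave 720 genes (3.94%), limma-voom 665 and DESeq2 685, each fewer than the 914 expected by chance. By the criterion of size and p, 311 genes (1.7%) were called, 120 (0.656%) toward a higher and 191 (1.04%) toward a lower effect in EE. These calls are not taken as differences between housings. Of the EE DEGs, 73 of the 243 higher and 40 of the 112 lower were among them, which share the EE values. Hist1h2bl, a replication-type histone H2B gene, was among the 3 genes with the smallest p. Its level ran from 0.659 to 1.18 CPM in EE SUS mice (median 0.887) and from 0.459 to 0.817 CPM in EE control mice (median 0.644), while medians were 0.598 CPM in SH SUS and 0.805 CPM in SH control mice. The log2 fold changes were 0.54 (SE 0.16) in EE and -0.33 (SE 0.15) in SH, and their difference was 0.87 (SE 0.22, edgeR adjusted p 1). The others were Arpin, an inhibitor of the Arp2/3 complex (difference 0.20, SE 0.06), and the TEC locus Gm38259 (-0.72, SE 0.20). Of the 243 higher DEGs in EE, 16 were also higher by the criterion in SH, where 116 genes were. Of the 112 lower DEGs, 0 were lower in SH, where 54 genes were. Across all 18283 genes, which are not independent, the effects in both housings had a Spearman correlation of 0.10 and a Pearson correlation of 0.15.

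EE SUS mice were also set against EE RES mice to ask what separates outcomes of the same defeat. By edgeR 0 genes had an adjusted p below 0.05, and limma-voom and DESeq2 gave 0 as well. At an unadjusted p below 0.05 edgeR gave 643 genes (3.52%), limma-voom 602 and DESeq2 595, each fewer than the 914 expected by chance. By the criterion 201 genes (1.1%) were called, 100 higher and 101 (0.552%) lower in SUS, and these calls are not taken as differences between outcomes. Bmp3, a BMP family member that opposes other BMPs, was among the 3 genes with the smallest p. It ran from 2.3 to 3.61 CPM in EE SUS mice (median 2.94), from 2.27 to 7.39 CPM in EE RES mice (median 3.73) and from 2.85 to 4.96 CPM in EE control mice (median 3.76). The log2 difference of SUS minus RES was -0.66 (SE 0.16, edgeR adjusted p 1), and SUS against control gave -0.39 (SE 0.16, edgeR adjusted p 0.553). Against the shared controls, EE RES mice had 90 higher and 124 (0.678%) lower DEGs, 214 (1.17%) in all, and 1447 genes (7.91%) at an unadjusted p below 0.05 by edgeR, where EE SUS mice had 243 and 112.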

How the data were processed

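RNA of the ventral dentate gyrus of 54 male mice in 6 groups was sequenced by the authors, who aligned reads to GRCm38 (mm10) with STAR. The deposited files hold read counts per gene for unstranded, forward and reverse counting. The methods of the study also name featureCounts, while the layout of the tables is that of STAR. The reverse-strand counts were used, since the forward column held few reads, and rows with no gene were left out. Gene names came from GENCODE M21, which matched 44671 of 45318 identifiers, and promoters from RefSeq.

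Counts were filtered with filterByExpr (18283 genes left), TMM-scaled and fitted over all 54 mice with edgeR 4.0.16 (quasi-likelihood, Benjamini-Hochberg). The criterion of the study was applied with limma 3.58.1 (voom), and DESeq2 1.42.0 was an alternative. Means of lists are of log2 CPM with a prior count of 2. On simulated counts for 18183 genes with 198 changed by a log2 of 1 between the EE groups, edgeR recovered 92.9% with 8 false calls. Counts of each gene were drawn independently, with no differences between mice shared by many genes. The share recovered checks the code and is not the power of these data. Counts on genes ran from 16760009 to 45872357 per mouse.

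Named genes were the 12 with the smallest p in each direction, the members of each list at an adjusted p below 0.05 (at most 6) or otherwise the 2 with the smallest p, the genes the study names, and the 3 with the smallest p for the difference between housings and for EE SUS against EE RES. Of these, those the groups of the report turn on are printed, and further members of the red cell, thalamus and immune groups, Gal, Rcan1 and Rgs16 were added after their values were seen. A member of the red cell list is not reported here by itself. Members and lists were chosen with earlier results of these data known. Alternatives covered size factors, filters, strand, a replicate block, tissue covariates, the runs of EE control mouse 9, subsets of groups, each mouse left out and, chosen after seeing the data, 5 EE SUS mice left out.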

Additional observations from a re-analysis of the deposited data

Results flagged for a closer look

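A total of 148 sets of 9 mice (69 genes and 5 gene lists, in EE SUS and in EE control mice) were searched for a mouse far from the rest of its group on the log2 scale, and 8 were found. Chance alone gives about 1 in 20. EE SUS mouse 7 stood apart with the highest S100a9 (13.3 CPM), Ackr1 (16.3 CPM) and C3 (3.97 CPM). EE SUS mouse 3 and EE control mouse 9 stood apart with the highest mean log2 CPM of the choroid plexus list, 3.79 and 3.22. EE SUS mouse 8 had the highest Usp43 (2.33 CPM), EE SUS mouse 9 the lowest Adgrf4 (3.68 CPM), and EE control mouse 5 the highest Slc4a1 (0.353 CPM).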

How the results depend on the processing

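For EE SUS against EE control mice, 0 genes had an adjusted p below 0.05, which went from 0 to 4 over the mice left out and was 4 without the 5 EE SUS mice high in thalamic genes (S100a8, S100a9, Chil3 and Plac8, with EE SUS mouse 7 among the 4 SUS mice left), where EE SUS against EE RES mice gave 2. These are edgeR counts, and limma-voom gave 0 genes for EE SUS against EE control mice both without EE SUS mouse 7 and without the 5 mice. The difference between housings gave 0 in all alternatives. The DEG count of 355 (243 higher, 112 lower) was 1091 (743 and 348) without a filter on low counts and 211 (168 and 43) with a filter of 1 CPM in 9 mice, which keep more and fewer genes. It was 249 with the tissue covariates (93 higher and 156 lower) and 329 without the 5 mice (127 and 202). Over the mice left out it ran from 298 to 404 (193 to 288 higher, 101 to 164 lower). Of the lists, thalamus gave 12 genes, 0 with covariates and 0 without the 5 mice (10 to 12 over the mice left out), and the yellow module 49, 2 and 7 (36 to 55). Red cell genes gave 6 to 7 and antigen presentation genes 2 to 4 over the mice left out.

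Replicate numbers did not pair the mice (correlations of same-numbered pairs from -0.17 to 0.18, over 0.1 in 3 of 9 pairs, with 2 SUS mice closest to their own number). With a replicate block the DEG count was 332 and 0 genes had an adjusted p below 0.05. Of the 69 genes followed, 7 turned direction with the tissue covariates: Tcf7l2 (-0.12), Slc17a6 (-0.0806), Gbx2 (-0.34), Ntng1 (-0.0794), Vipr2 (-0.0816), Zfhx3 (-0.11) and Grm4 (-0.13). Without the 5 SUS mice Slc17a6 (-0.0374) and Ntng1 (-0.0878) turned. The covariates were built from listed genes, and the other causes were not tested. Genes below 1 CPM rest on few reads in each mouse.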
